A study of Mus musculus with 29 samples.

Results

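The genes described here are the 4 mouse kinases of translation initiation factor eIF2 (Eif2ak1, Eif2ak2, Eif2ak3 and Eif2ak4) and 4 genes that act downstream of them in the integrated stress response (Atf4, Ddit3, Ppp1r15a and Ppp1r15b). They were chosen by symbol, as 8 of the 49997 gene rows of the count and FPKM tables, and their values were taken in all 10 groups of the series. Poly(A) RNA was measured by Smart-seq2, a full-length cDNA method for few cells, in 29 tubes of 10 pooled oocytes or zygotes each. The controls, called WT, were Dhx36fl/fl, and the mutants, called CKO, were Dhx36fl/fl with Zp3-Cre, so that the floxed alleles were shared by both genotypes. Zp3-Cre is driven by the promoter of a zona pellucida gene and acts in oocytes from early growth onwards, while the other cells of the ovary keep the floxed alleles. There were 3 libraries of each genotype from oocytes in growth at 2 weeks of age (GO 2W), from fully grown oocytes at 4 weeks (FGO 4W) and from zygotes at 3 weeks (zygote 3W). Fully grown oocytes at 3 weeks (FGO 3W) gave 2 libraries per genotype, and mature oocytes in metaphase II at 3 weeks (MII 3W) gave 3 from WT and 4 from CKO. The labels do not tie tubes to animals, and the p-values therefore cover tube-to-tube spread, which may be technical.

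When a cell is stressed, one or more of the 4 kinases phosphorylate the alpha subunit of eIF2, which slows the start of translation for most mRNAs. Each kinase reads its own signal: HRI, encoded by Eif2ak1, responds to lack of heme and to mitochondrial stress, PKR (Eif2ak2) to double-stranded RNA, PERK (Eif2ak3) to unfolded proteins in the endoplasmic reticulum, and GCN2 (Eif2ak4) to uncharged tRNA. The mRNA of the transcription factor ATF4 is then translated better through its upstream reading frames. ATF4 raises genes of amino acid supply and, with prolonged stress, Ddit3, which encodes the factor CHOP. Ppp1r15a (GADD34, induced by stress) and Ppp1r15b (CReP, constitutive) encode the regulatory subunits that bring protein phosphatase 1 to eIF2 and end the response. Poly(A) RNA shows none of the phosphorylation steps, so only mRNA levels in poly(A) RNA are described. The DHX36 helicase, which is targeted in the CKO, unwinds G-quadruplexes, folded stacks formed by neighbouring runs of G.

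G-quadruplex sequences of the members are shown because DHX36 acts on such structures. A pattern of 4 runs of at least 3 G, separated by 1 to 7 bases, was searched on the sense strand of 1 GENCODE vM21 transcript per gene (GRCm38). It was found in 2 of the 8 members and in 16.7% of 21901 coding genes. The match of Atf4 spans transcript bases 177 to 195 in the 5' UTR, at chr15:80255360-80255378 on the plus strand. The match of Eif2ak2 spans bases 2181 to 2199 in the 3' UTR, at chr17:78854678-78854696 on the minus strand. Capitals mark the runs of G, from 5' to 3'.
Atf4: GGGttGGGGcGGGcgaGGG
Eif2ak2: GGGaGGGaggaaGGGaGGG
A match describes letters only, and no folding was measured.

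Promoter sequences were searched for 3 elements known from stress-response genes, on both strands of a window of 300 bases that ends just inside the gene, in RefSeq's GRCm38.p6 table. Entries were matched for 7 of the 8 members, the exception being Ppp1r15b. The C/EBP-ATF element TTGCATCA, held by 0.895% of 32851 promoters, and the endoplasmic reticulum stress element, held by 0.119%, matched none of the members' windows. The cAMP response element TGACGTCA, held by 1.79% of promoters, matched that of Ppp1r15a, from base -12 to base -5. The window of Ppp1r15a is printed for that reason, with the element in capitals, from chr7:45526219-45526518 on the minus strand.
Ppp1r15a: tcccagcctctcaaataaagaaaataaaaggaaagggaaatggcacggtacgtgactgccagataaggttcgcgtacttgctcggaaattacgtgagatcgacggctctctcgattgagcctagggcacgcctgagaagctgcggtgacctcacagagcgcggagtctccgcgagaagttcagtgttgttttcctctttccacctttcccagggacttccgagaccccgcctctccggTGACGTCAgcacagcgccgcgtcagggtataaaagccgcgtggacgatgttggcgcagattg
The G-quadruplex pattern matched none of the 7 members' windows, against 18.6% of promoters. Upstream ATG codons, which can start short reading frames before the main one, were counted in the annotated 5' UTRs. Ppp1r15a held 7, Atf4, Eif2ak3 and Ppp1r15b 3 each, Ddit3 2, Eif2ak2 1, and Eif2ak1 and Eif2ak4 none, while 49.6% of coding genes held at least 1.

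The members lie on 8 chromosomes of GRCm38. Eif2ak1 spans 143817788 to 143904251 on chromosome 5, Eif2ak2 78852564 to 78882573 on chromosome 17, Eif2ak3 70844515 to 70905245 on chromosome 6, and Eif2ak4 118388618 to 118475234 on chromosome 2. Atf4 spans 80255184 to 80257541 on chromosome 15, Ddit3 127290774 to 127296288 on chromosome 10, Ppp1r15a 45522916 to 45526268 on chromosome 7, and Ppp1r15b 133131143 to 133139783 on chromosome 1. Exons of Eif2ak3 share 485 bases with Gm43292 and those of Ppp1r15b 640 bases with Gm26616, both annotated on the opposite strand. Exons of Eif2ak1 share 487 bases with Aimp2 and 172 with Ankrd61, and those of Ddit3 68 with Mars and 105 with a second annotated Ddit3 entry. Those of Eif2ak2 share 174 bases with Gm26637 and 47 with n-R5s29, both on the opposite strand. The strand setting of the counting is not given in the sources used here, so reads in these shared bases cannot be assigned to either gene.

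Libraries held between 17697507 and 49104313 counts in all. The Rn18s-rs5 row, a ribosomal RNA sequence, took 8.43% and 21.9% of counts in CKO MII 3W replicates 2 and 3, and 27.3% in CKO zygote 3W replicate 1, against 1.61% to 6.81% elsewhere. Oocyte markers (14 genes) summed to between 9098 and 29870 CPM (counts scaled to the size of the library, with TMM factors), and granulosa and cumulus markers (15 genes) to between 50.9 and 158.5 CPM. Among the latter, Cyp19a1 had the highest median, 46.9 CPM, followed by Kitl at 10.45 CPM. Amh, Foxl2, Wt1 and Fst were at 0 in 21, 19, 19 and 18 libraries. In contrast, Fshr reached 32.05 CPM and was at 0 in 2 libraries, and Inha reached 13.1 CPM and was at 0 in 10. Cyp11a1 and Star were at 0 in none and reached 4.76 and 1.88 CPM. The markers of blood and immune cells (6 genes) summed to 51.7 CPM in CKO zygote 3W replicate 3 and to between 0.691 and 6.42 CPM in the other libraries, and those of theca and stroma and of sperm (6 genes each) reached at most 9.83 and 11.1 CPM. Whole-gene Dhx36 counts were not lower in CKO at any stage. At MII 3W they were higher by edgeR's test (log2 change 1.79, adjusted p 0.00197), with 338.3 to 3226 CPM in CKO tubes and 397.3 to 429.0 in WT. Since the labels do not name the deleted exons, these counts check no genotype label. Less RNA per cell and fewer cells per tube cannot be told apart in these tubes.

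Levels were compared between members per gene length, as the deposited FPKM. In WT GO 2W, Atf4 stood highest at 166.6 FPKM (SD 3.61, n = 3), followed by Eif2ak1 at 100.9 (SD 0.996) and Ppp1r15a at 36.6 (SD 3.12). Eif2ak4 at 14.2 (SD 1.19) and Ddit3 at 13.8 (SD 1.63) did not differ beyond their spread, and Ppp1r15b stood at 10.4 (SD 1.69). Eif2ak3 was at 1.40 (SD 0.163) and Eif2ak2 at 0.0228 (SD 0.0114). HRI was thus the most abundant kinase mRNA per length in WT growing oocytes. The order changed at WT MII 3W, where Eif2ak1 stood highest at 139.6 FPKM (SD 2.20), followed by Ppp1r15a at 57.4 (SD 2.28). Atf4 at 25.3 (SD 1.94) and Eif2ak4 at 21.4 (SD 2.20) had ranges that overlapped only at their edges, and Eif2ak3 stood at 10.8 (SD 1.16). Ppp1r15b was at 4.14 (SD 1.21), Ddit3 at 0.29 (SD 0.0587) and Eif2ak2 at 0.0812 (SD 0.089). In WT zygotes Atf4 again led, at 103.3 FPKM (SD 17.4). The length behind the FPKM of Ddit3 was 2542 bases, against 890 in its GENCODE transcript, so its FPKM would be higher on the transcript's length. For Atf4 the lengths were 1729 and 1725 bases. For Eif2ak1 they were 2787 and 4325 bases, so its FPKM would be lower on the transcript's length. This applies also at MII 3W, where it stood above Atf4.

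**Figure D1:**
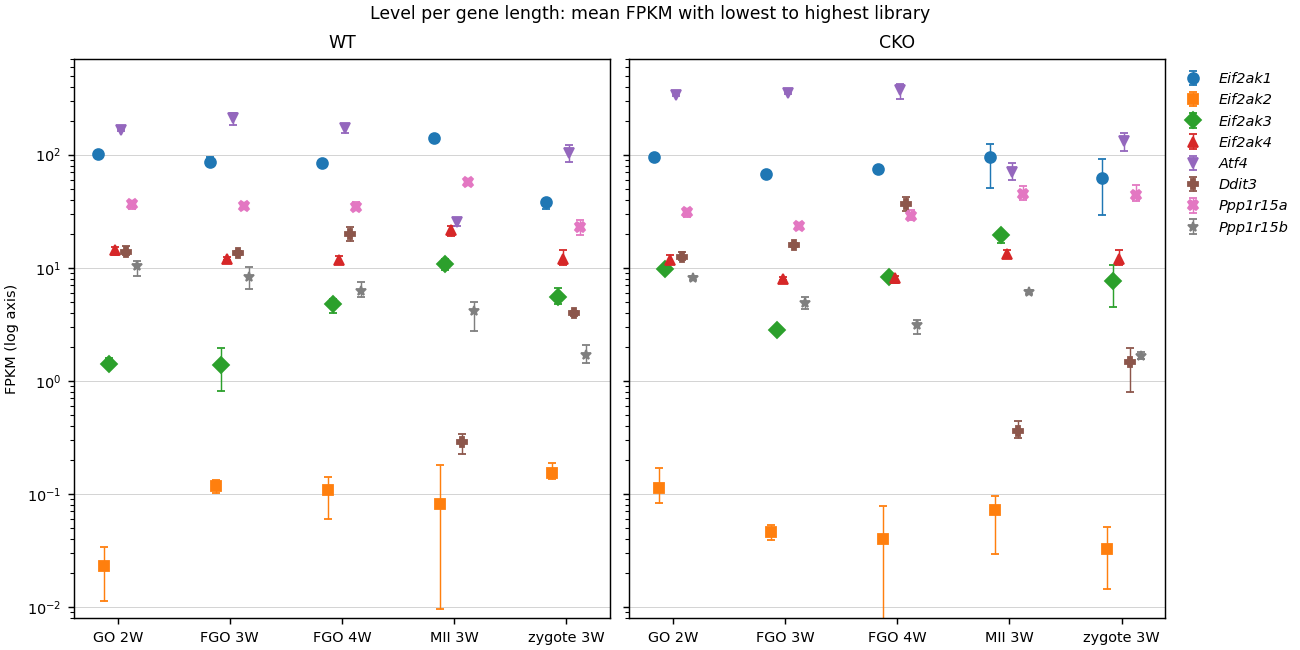
Mean FPKM (log axis) of the 8 genes at each stage, WT on the left and CKO on the right, with bars from the lowest to the highest library. Atf4 had the highest mean except at MII 3W, where that of Eif2ak1 stood above it at 139.6 FPKM in WT and 94.7 FPKM in CKO. In CKO MII 3W the ranges of these genes overlapped, at 51.1 to 124.4 for Eif2ak1 and 60.3 to 83.8 for Atf4. The bar of Eif2ak2 in CKO FGO 4W leaves the axis because 1 library is at 0.

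The comparison of CKO with WT at each stage asked which of these mRNAs differ when Dhx36 is targeted in the oocyte. Changes are log2 of CKO over WT from edgeR's quasi-likelihood fit of all 29 libraries, with standard errors (SE) or 95% intervals. The intervals took the SE as normal and are slightly narrower than the test of the fit implies. An interval can therefore exclude 0 at an unadjusted p above 0.05. A change was called at a Benjamini-Hochberg adjusted p under 0.05 over the 21768 genes tested, and all 8 members passed the filter on low counts. At GO 2W, 2 members were higher (7.34% of all genes tested were) and 1 was lower (6.38%). At FGO 3W, 0 members were higher by edgeR's test (8.19% of all genes) and 3 lower (9.62%), while 2, Eif2ak3 and Atf4, were higher at an unadjusted p under 0.05 and were called by DESeq2. At FGO 4W, 2 were higher (11.8%) and 3 lower (14.8%). At MII 3W, 2 were higher (18.2%) and 3 lower (14.7%), and in zygotes 3 were higher (14.5%) and 1 lower (12.5%). Marker sums moved with genotype as well. The granulosa and cumulus sum was higher in every CKO than every WT tube of growing oocytes (85.9 to 113.5 against 50.9 to 73.2 CPM). The same held in fully grown oocytes at 3 weeks (104.3 to 106.0 against 62.8 to 63.8) and 4 weeks (64.6 to 84.9 against 51.2 to 59.7). Cyp19a1 had the highest median in that sum, and the single genes of the sum were not compared between genotypes. Oocyte markers were lower in every CKO tube, at 22620 to 23610 against 24590 to 29870 CPM in GO 2W, at 18280 to 19190 against 22430 to 25610 in FGO 3W and at 14100 to 18260 against 23110 to 25570 in FGO 4W. In MII 3W both sums overlapped between genotypes. The part of these markers in the members' changes was not tested. Averaged over the 5 stages, 2 members were higher, where 24.4% of all genes were, and 3 lower, where 23.6% were. The CKO change was unequal among the 5 stages in 7 members, all but Eif2ak2 (adjusted p 0.0609), against 30.3% of all genes.

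**Figure D2:**
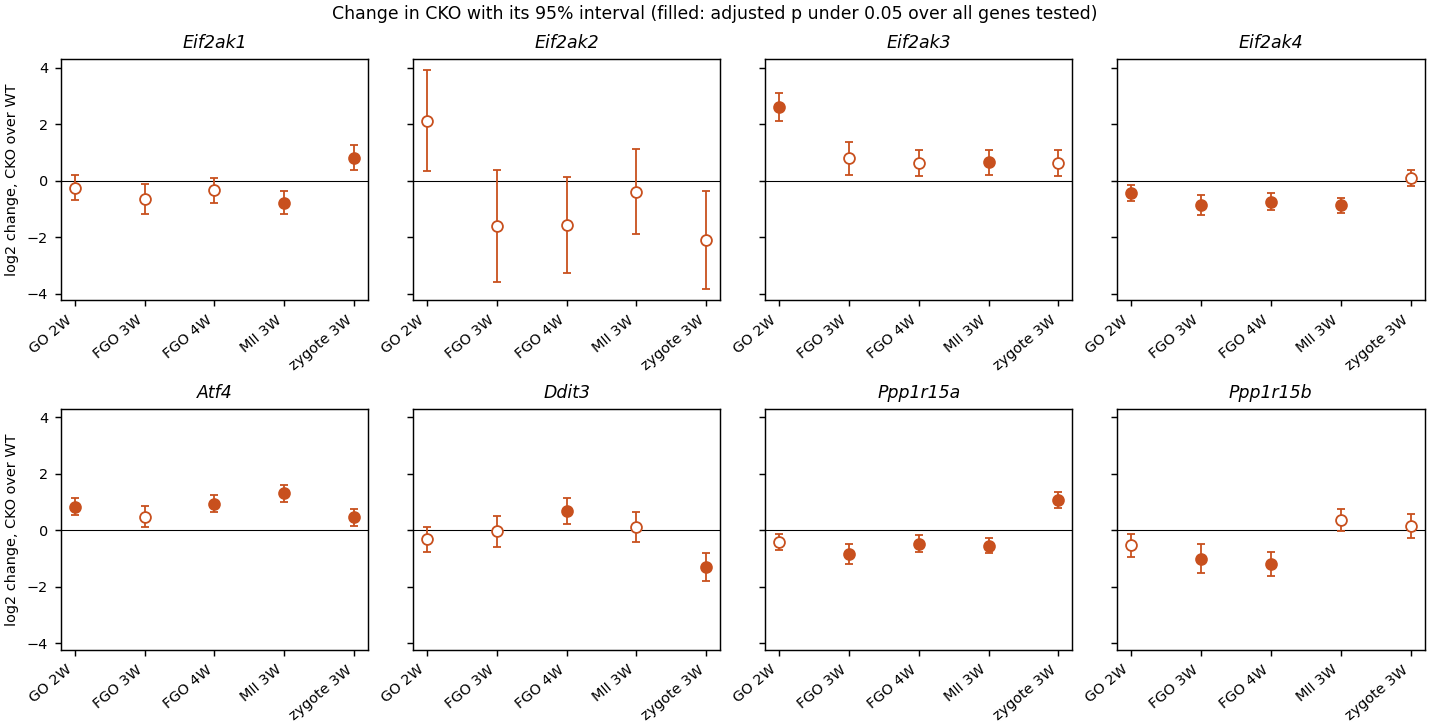
Log2 change of CKO over WT for each gene at each stage, with its 95% interval; filled points have an adjusted p under 0.05. The points of Atf4 and Eif2ak3 lie above 0 at all 5 stages, with the largest called change at 2.62 for Eif2ak3 at GO 2W, while Ppp1r15a and Eif2ak1 change sign between MII 3W and zygote 3W.

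Among the kinases, the largest called change was that of Eif2ak3 in growing oocytes, while at the later stages Eif2ak4 or Eif2ak1 had larger ones. In WT GO 2W its libraries held 5.65, 5.81 and 7.04 CPM, and in CKO GO 2W 37.65, 39.9 and 36.3 CPM. Every CKO tube lay above every WT tube, and the CKO tubes stayed close together. The change was 2.62 (SE 0.257, adjusted p 8.52e-08), a ratio of 6.15. In FGO 3W the levels were 3.85 and 8.40 CPM in WT and 11.4 and 9.87 in CKO, and in FGO 4W 21.6, 18.6 and 24.0 in WT and 35.2, 31.8 and 32.1 in CKO. The groups were apart at both ages, with changes of 0.79 (95% interval 0.21 to 1.38, adjusted p 0.0642) and 0.63 (0.16 to 1.10, 0.0535) that were not called. RLE size factors and DESeq2 called both, at 0.85 (adjusted p 0.0474 and 0.0274) and 0.68 (0.0351 and 0.022). The FGO 3W change was 0.37 (0.566) without WT replicate 1 and 1.46 (0.00645) without WT replicate 2. At MII 3W, WT held 74.6, 81.1 and 65.5 CPM and CKO 114.2, 126.0, 110.3 and 111.3, again without overlap. That change of 0.65 (SE 0.225, adjusted p 0.0271) was not called without the 3 libraries rich in ribosomal RNA (0.62, 0.0713) or without ribosomal RNA rows (0.52, 0.0767). It was also not called without WT replicate 1 (0.68, 0.0653), WT replicate 3 (0.59, 0.106) or CKO replicate 2 (0.62, 0.0587). Zygotes overlapped, with 27.0, 34.0 and 25.2 CPM in WT and 50.6, 57.8 and 24.4 in CKO, and the change of 0.62 (SE 0.24, adjusted p 0.0543) was 0.88 (0.00386) without CKO zygote replicate 3 and 0.39 (0.301) without CKO replicate 2. Averaged over stages, Eif2ak3 rose by 1.06 (SE 0.113, adjusted p 1.04e-08).

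Eif2ak4, the amino acid sensor GCN2, was lower in CKO in every oocyte stage. WT GO 2W held 72.2, 69.0 and 61.8 CPM, against 46.3, 56.0 and 47.8 in CKO. In fully grown oocytes the WT levels were 60.0 and 57.5 CPM at 3 weeks and 59.9, 56.2 and 56.4 at 4 weeks, and the CKO levels 33.3 and 31.7, then 32.2, 34.96 and 36.3. At each of these stages the CKO tubes lay below the WT tubes. The fall at MII 3W was from 162.5, 141.2 and 173.8 CPM to 87.4, 89.7, 90.5 and 79.5. The GO 2W change was -0.44 (SE 0.145, adjusted p 0.0426). It was -0.85 (SE 0.178, 0.00116) in FGO 3W, -0.74 (SE 0.146, 0.000386) in FGO 4W and -0.88 (SE 0.134, 1.03e-05) in MII 3W oocytes. The GO 2W call was lost with limma on FPKM (-0.25, adjusted p 0.173), with no filter (-0.39, 0.341), and without WT replicate 1 or 2 or CKO replicate 1 or 3 (-0.38 to -0.42, adjusted p 0.114 to 0.164). Zygotes did not separate, with 58.3, 80.0 and 65.5 CPM in WT and 74.0, 84.5 and 61.3 in CKO (0.11, 95% interval -0.18 to 0.39, adjusted p 0.627).

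Eif2ak1, which encodes HRI, was lower in CKO MII oocytes and higher in CKO zygotes. WT MII 3W held 560.3, 546.6 and 535.4 CPM and CKO MII 3W 336.1, 341.3, 194.9 and 407.9. All CKO tubes lay below WT, and the lowest was replicate 3, the tube with 21.9% of counts in Rn18s-rs5. The change was -0.77 (SE 0.207, adjusted p 0.00457), and -0.55 (0.000667) without the 3 libraries rich in ribosomal RNA. With limma on log2(FPKM + 1) the MII 3W change was -0.63 (0.0585) and not called. In zygotes, WT held 116.3, 121.2 and 101.6 CPM and CKO 106.8, 282.2 and 206.1, and the CKO tube within the WT range was replicate 1, with 27.3% of counts in Rn18s-rs5. The change of 0.81 (SE 0.225, adjusted p 0.00781) was 1.04 (9.92e-08) without the rich libraries and 0.45 (0.111) without CKO replicate 2. It was not called with limma on log2(FPKM + 1) (adjusted p 0.116) or in a fit of zygotes alone (0.129). The part of the ribosomal RNA share in these values was not tested beyond leaving those tubes out. In earlier stages CKO tubes also lay below WT without a call. The change was -0.24 (adjusted p 0.535) in growing oocytes, and -0.65 (0.104) and -0.34 (0.278) in fully grown oocytes at 3 and 4 weeks. Without the libraries rich in ribosomal RNA, the FGO 3W and FGO 4W changes were called, at -0.57 (0.00141) and -0.30 (0.0277).

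Eif2ak2, the double-stranded RNA sensor PKR, was close to the limit of detection. Its libraries held between 0 and 45 counts, and 1 CKO FGO 4W library held 0 counts, which allows up to 3 if counts are independent. WT GO 2W had 2, 4 and 4 counts and CKO GO 2W 15, 14 and 32. In zygotes the order was the other way, with 19, 22 and 28 counts in WT and 2, 8 and 5 in CKO. The changes of 2.13 (95% interval 0.35 to 3.92, adjusted p 0.123) and -2.11 (-3.85 to -0.38, 0.0772) were not called. DESeq2 called the zygote change (adjusted p 0.0412), as did limma on log2(FPKM + 1) with no filter (-0.16, 0.0168). A fit of GO 2W alone called the change at GO 2W (0.0268).

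The share of each kinase in the summed FPKM of the 4 kinase genes was computed per library, since the scaling of the library cancels in it. This measure was added after the values had been seen and was not tested. The deposited FPKM took 2787 bases for Eif2ak1. On its GENCODE transcript of 4325 bases its share would be lower. Eif2ak1 made up 86.6% (SD 0.659, n = 3) in WT GO 2W and 81.6% (SD 1.25, n = 3) in CKO. The share of Eif2ak3 was 1.21% (SD 0.161) in WT GO 2W and 8.27% (SD 0.356) in CKO, and 6.26% (SD 0.66) in WT MII 3W and 15.8% (SD 3.48, n = 4) in CKO. In CKO MII 3W, Eif2ak3 at 16.6 to 21.1 FPKM lay above Eif2ak4 at 12.5 to 14.2, whereas in WT MII 3W Eif2ak4 lay above Eif2ak3 in every tube. In fully grown oocytes each CKO tube also had a higher Eif2ak3 share than each WT tube, with means of 3.64% against 1.43% at 3 weeks and 9.13% against 4.74% at 4 weeks. The CKO zygotes ranged from 5.52% to 16.6%, on both sides of the 9.47% to 10.6% of WT zygotes.

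**Figure D3:**
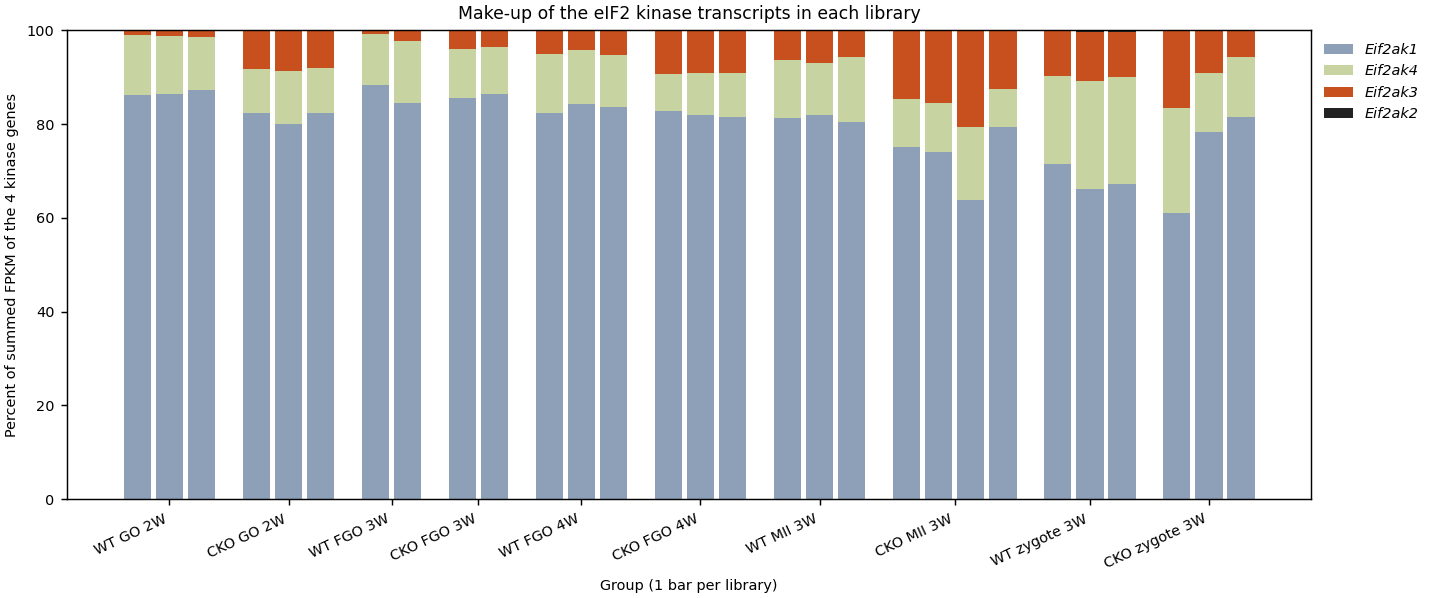
Stacked share of each kinase gene in the summed FPKM of the 4 kinase genes, 1 bar per library, grouped by genotype and stage. The band of Eif2ak3 widens from 1.21% in WT GO 2W to 8.27% in CKO GO 2W and from 6.26% to 15.8% at MII 3W, and Eif2ak2 is too small to see.

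Atf4, the transcription factor mRNA at the centre of the response, was higher in CPM in CKO tubes than in WT tubes at each stage. WT GO 2W held 253.2, 260.8 and 264.9 CPM and CKO GO 2W 463.4, 465.1 and 465.1. FGO 3W held 305.8 and 358.8 in WT and 456.1 and 473.8 in CKO, and FGO 4W 286.3, 285.5 and 248.2 in WT and 444.4, 577.0 and 556.9 in CKO. The genotypes did not overlap at any of these stages. At MII 3W the WT level fell to 57.3, 61.6 and 65.8 CPM, against 133.9, 127.9, 198.2 and 148.4 in CKO, where the highest value was again replicate 3, rich in Rn18s-rs5. Zygotes held 220.2, 160.0 and 191.7 CPM in WT and 245.1, 247.7 and 297.7 in CKO, the narrowest gap. In FPKM the zygotes overlapped, at 86.9 to 121.6 in WT and 107.3 to 156.2 in CKO. The called changes were 0.84 (SE 0.152, adjusted p 0.000397) in growing oocytes, 0.94 (SE 0.152, 3.53e-05) in FGO 4W, 1.30 (SE 0.147, 1.07e-07) at MII 3W and 0.47 (SE 0.151, 0.022) in zygotes. The zygote call was lost with limma on log2(FPKM + 1) (adjusted p 0.0894), with no filter (0.0895), in a fit of zygotes alone (0.16), and without WT replicate 2 (0.33, adjusted p 0.162), WT replicate 3 (0.45, 0.0685) or CKO replicate 3 (0.34, 0.128). At FGO 3W the change of 0.48 (SE 0.185, adjusted p 0.0699) was not called, and it was called without the libraries rich in ribosomal RNA (0.56, 0.00531). The MII 3W change was 1.20 (1.16e-07) without those libraries. Averaged over stages, Atf4 rose by 0.81 (SE 0.0706, adjusted p 3.06e-10).

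Ddit3, which encodes CHOP, changed in opposite directions at different stages. WT FGO 4W held 39.2, 55.1 and 46.1 CPM, below the 66.2, 72.1 and 87.2 of CKO. WT zygotes held 10.8, 10.2 and 11.6 CPM, above the 6.59, 2.25 and 4.56 of CKO. The rise at FGO 4W was 0.68 (SE 0.233, adjusted p 0.0299) and was not called without WT replicate 1 or 3 or CKO replicate 2 or 3 (0.56 to 0.71, adjusted p 0.0556 to 0.131). The fall in zygotes was -1.29 (SE 0.249, adjusted p 0.000259), and -1.74 (2.82e-06) without the rich libraries, while a fit of zygotes alone gave an adjusted p of 0.0741. At GO 2W the 29.5, 35.7 and 29.8 CPM of WT lay above the 27.6, 24.2 and 24.0 of CKO without a call (-0.32, adjusted p 0.403). FGO 3W overlapped, at 28.9 to 34.9 CPM in WT and 29.97 to 32.0 in CKO. At MII 3W the gene was nearly absent from poly(A) RNA in both genotypes, with 18 to 32 counts in WT and 25 to 39 in CKO (0.12, 95% interval -0.42 to 0.65). Of the 4 stages with a called rise of Atf4, a called rise of Ddit3 stood beside it at FGO 4W, and a called fall in zygotes.

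Ppp1r15a, the inducible subunit GADD34, was lower in CKO oocytes and higher in CKO zygotes. WT MII 3W held 191.5, 194.1 and 179.7 CPM and CKO MII 3W 113.4, 149.7, 128.1 and 121.2. WT zygotes held 64.7, 56.8 and 50.1 CPM and CKO zygotes 119.9, 139.2 and 103.2. The genotypes were apart at both stages, in opposite order. The changes were -0.56 (SE 0.136, adjusted p 0.00208) at MII 3W and 1.08 (SE 0.148, 3.82e-06) in zygotes. The 14 oocyte markers summed to 16280 to 18160 CPM in WT zygotes, above the 9098 to 15360 of CKO zygotes. The 15 granulosa and cumulus markers, of which 4 were at 0 in every library of each genotype, summed to 54.2 to 61.2 CPM in WT zygotes, below the 75.4 to 158.5 of CKO zygotes. Without CKO replicate 3, the tube with the high blood and immune markers, the zygote change of Ppp1r15a was 1.15 (2.3e-06), that of Ddit3 -1.33 (0.00138) and that of Eif2ak1 0.72 (0.023). The part of these differences in the zygote values of the members was not tested. In FGO 3W, 81.6 and 70.2 CPM in WT stood against 43.8 and 40.2 in CKO (-0.85, SE 0.18, adjusted p 0.00134). At FGO 4W, 69.2, 84.1 and 72.0 in WT stood against 51.2, 60.3 and 51.0 in CKO (-0.47, SE 0.147, 0.0179), a call lost with limma on FPKM (-0.27, 0.112), with no filter (-0.42, 0.175), and without WT replicate 2 or CKO replicate 1 or 3. GO 2W, with 70.1 to 82.1 CPM in WT and 52.7 to 62.1 in CKO, had a change of -0.42 (adjusted p 0.0573) that DESeq2 called (0.0216). The average over stages, -0.24 (SE 0.0678, adjusted p 0.00389), joins changes of opposite sign, and its call was lost with limma on FPKM (-0.11, 0.148) and with no filter (-0.21, 0.0908).

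Ppp1r15b, the constitutive subunit CReP, was lower in CKO fully grown oocytes. At FGO 4W, WT held 37.1, 29.2 and 30.3 CPM and CKO 15.8, 14.9 and 11.8. At FGO 3W, WT held 34.9 and 49.7 and CKO 23.7 and 18.6. The CKO tubes lay below the WT tubes at both ages, by -1.19 (SE 0.214, adjusted p 0.000145) and -1.002 (SE 0.259, 0.0072). The FGO 3W call was lost without WT replicate 2 (-0.73, 0.141) or CKO replicate 2 (-0.84, 0.135). GO 2W had 56.4, 57.5 and 42.9 CPM in WT and 36.7, 35.6 and 35.8 in CKO, apart but not called (-0.54, adjusted p 0.0907). At MII 3W and in zygotes the genotypes overlapped in CPM, with changes of 0.36 (95% interval -0.02 to 0.75) and 0.14 (-0.29 to 0.56). In FPKM at MII 3W, the CKO tubes at 5.84 to 6.38 lay above the WT tubes at 2.75 to 5.01. Limma on log2(FPKM + 1) called that change (0.49, adjusted p 0.0204).

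**Figure D4:**
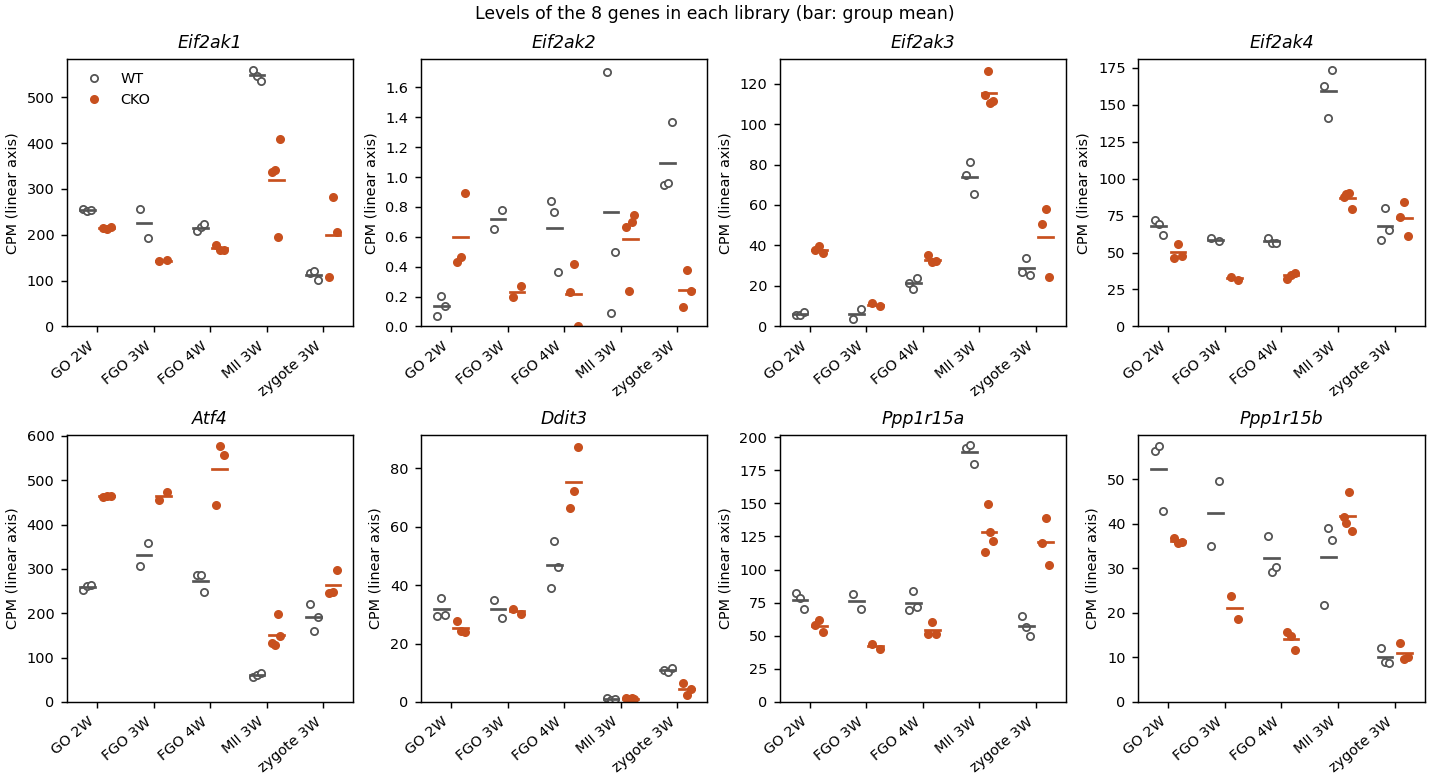
CPM (linear axis) of each gene in each library, WT as open grey points and CKO as filled orange points, with bars at the group means. Atf4 points of CKO lie above WT at every stage, and those of Ppp1r15a lie below WT up to MII 3W (113.4 to 149.7 against 179.7 to 194.1 CPM) and above it in zygotes (103.2 to 139.2 against 50.1 to 64.7 CPM).

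The stages were compared within each genotype, where the effects of stage, of age and of a possible batch cannot be told apart. During growth from GO 2W to FGO 4W, WT had 1 member called, Eif2ak3, which rose by 1.79 (adjusted p 0.000102), against 2.47% of all genes. In CKO 3 members were called, against 17.1% of all genes. These were Ddit3, up by 1.57 (3.47e-05), Ppp1r15b, down by -1.35 (6.46e-05), and Eif2ak4, down by -0.54 (0.0104). Eif2ak3, at 36.3 CPM or more in CKO GO 2W already, moved by -0.20 (95% interval -0.67 to 0.27) there. Between the ages of fully grown oocytes, FGO 4W over FGO 3W, Eif2ak3 rose by 1.80 in WT (adjusted p 0.000775, 0.579% of all genes called) and by 1.64 in CKO (0.000402, 6.89% called). Ddit3 rose as well in CKO, by 1.28 (0.00343), so that 2 members were called there, and 1 without CKO FGO 3W replicate 1 or 2. The WT call of Eif2ak3 was lost without WT FGO 3W replicate 1 (1.29, 0.106).

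From FGO 3W to MII 3W, when transcription is silent and stored mRNAs are translated or cleared, 6 members moved in WT, where 48.3% of all genes did. Eif2ak3 rose by 3.59 (adjusted p 1.54e-10), Eif2ak4 by 1.44 (4.17e-08), Ppp1r15a by 1.31 (2.33e-07) and Eif2ak1 by 1.28 (0.000152). Ddit3 dropped by -4.93 (1.17e-13) and Atf4 by -2.43 (1.87e-12). In poly(A) RNA, the mRNAs of HRI, PERK, GCN2 and GADD34 thus rose in relative level while those of ATF4 and CHOP fell. The median over all genes was -0.28. Tail length was not measured, so the amount of an mRNA and its capture through the poly(A) tail cannot be told apart between stages. CKO had the same 6 members called in the same directions and Ppp1r15b as well, 7 members against 50.1% of all genes. The CKO moves were 3.44 for Eif2ak3, 1.42 for Eif2ak4, 1.61 for Ppp1r15a, 1.16 for Eif2ak1, 0.98 for Ppp1r15b, -4.77 for Ddit3 and -1.61 for Atf4. Other processing settings did not always call these rises. That of Eif2ak1 was lost in 3 of 14 settings in WT (lowest value 0.68) and 3 of 15 in CKO (0.42). That of Ppp1r15b in CKO was lost in 3 of 15 (0.26). In WT the rises of Eif2ak3, Eif2ak4 and Ppp1r15a were called in all 14 settings, with lowest values of 2.34, 0.78 and 0.69. The WT falls were also called in all 14, from -3.03 to -2.26 for Atf4 and from -5.14 to -3.49 for Ddit3.

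From MII 3W to the zygote the order turned. In WT 7 members were called, against 34.0% of all genes, with Ddit3 up by 3.38 (adjusted p 1.99e-10) and Atf4 by 1.63 (2.71e-09). Eif2ak1 fell by -2.28 (1.01e-08), Ppp1r15a by -1.72 (5.95e-10), Ppp1r15b by -1.70 (4.51e-07), Eif2ak3 by -1.36 (5.55e-05) and Eif2ak4 by -1.23 (1.32e-07). In CKO 5 members were called, against 22.2% of all genes. Ddit3 rose by 1.97 (1.22e-06) and Atf4 by 0.79 (0.000112), while Ppp1r15b fell by -1.93 (1.16e-07), Eif2ak3 by -1.38 (5.42e-05) and Eif2ak1 by -0.69 (0.0188), or by -0.44 (0.065) without CKO zygote replicate 1. Ppp1r15a and Eif2ak4 were not called in CKO, at -0.09 (95% interval -0.35 to 0.18) and -0.24 (-0.51 to 0.02).

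The differences of the CKO change between stages were tested as interaction terms. From MII 3W to the zygote, 5 members differed, against 15.7% of all genes. These were Ppp1r15a (1.63, 95% interval 1.24 to 2.03, adjusted p 1.83e-06), Eif2ak1 (1.59, 0.99 to 2.19, 0.00057), Eif2ak4 (0.98, 0.60 to 1.37, 0.000866), Atf4 (-0.84, -1.25 to -0.43, 0.00598) and Ddit3 (-1.41, -2.13 to -0.69, 0.00891). From FGO 3W to MII 3W, Ppp1r15b (1.37, adjusted p 0.00488) and Atf4 (0.82, 0.0179) differed, 2 members against 14.7% of all genes. The Ppp1r15b call was lost without WT or CKO FGO 3W replicate 2 (1.09 and 1.20, adjusted p 0.0671 and 0.0625). The Atf4 call was lost without WT FGO 3W replicate 2 (0.70, 0.121), CKO FGO 3W replicate 1 (0.79, 0.0877) or 2 (0.84, 0.0712) or WT MII 3W replicate 1 (0.72, 0.0584), and with no filter on low counts (0.77, 0.0512). From GO 2W to FGO 4W, 1 member differed, Eif2ak3 (-1.99, -2.67 to -1.32, 0.000531), against 5.37% of all genes. Between FGO 3W and FGO 4W, 0 members differed by edgeR's test, against 2.72% of all genes, and also 0 at an unadjusted p under 0.05, where the Ddit3 interval of 0.01 to 1.45 had an adjusted p of 0.399.

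Genes with the most similar pattern were sought among 10042 tested genes with a mean of at least 5 CPM, by Pearson's r over the 10 group means of log2 CPM, for the members with a called average change. Eif2ak4 had the closest, with Flcn (r = 0.99), which encodes the lysosomal nutrient-sensing protein folliculin, Mcoln1 (0.986), a lysosomal calcium channel gene, and Mtmr4 (0.983). Atf4 was closest to Arl6ip4 (0.986), the ribosome biogenesis gene Nop53 (0.984) and Gm18774 (0.984). Ppp1r15a was closest to Frmd8 (0.983), the AMP deaminase gene Ampd3 (0.976) and the decapping gene Dcp1a (0.976). Lower values were found for Ppp1r15b, with Igf2r (0.96), Paox (0.943) and Rnf216 (0.942), and for Eif2ak3, with Vrk3 (0.933), Reep1 (0.915) and Fam221a (0.896). Among the members, Atf4 ran opposite to Eif2ak4 (r = -0.952) and with Ddit3 (0.838), and Eif2ak4 ran with Ppp1r15a (0.913). These values describe 10 group means that share libraries between genes.

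Related genes were counted in the average change over the 5 stages, where the median of all genes was 0.044. In that contrast 24.4% of all genes were higher and 23.6% lower. Of the 10 tested of 11 genes for eIF2, its exchange factor eIF2B and their partners, 0 were higher, 7 lower and 3 not called, with a median of -0.52, and the count of higher genes was also 0 at an unadjusted p under 0.05. The substrate of the kinases, Eif2s1, fell from 81.3 to 13.4 CPM at MII 3W (-2.60, adjusted p 5.18e-11) and from 198.7 to 50.8 in zygotes (-1.97, 4.06e-08), with values of 0.08, -0.05 and -0.36 in GO 2W, FGO 3W and FGO 4W that were not called. Eif2b3, a subunit of eIF2B, fell by -1.20 (2.03e-07) at MII 3W and -1.08 (5.29e-06) in zygotes. The eIF2B gene Eif2b2 (-0.50, 3.44e-06) and Eif5 (-0.55, 4.14e-08), the GTPase activator of eIF2, fell in the average. By stage, from growing oocytes to zygotes, 0, 3, 3, 6 and 6 genes of the eIF2 list were lower. The shares of all genes lower were 6.38%, 9.62%, 14.8%, 14.7% and 12.5%. The first count of the list was 3 at an unadjusted p under 0.05. In MII 3W 1 gene of the list was higher, against 18.2% of all genes. At the other stages 0 were, by edgeR's test or at an unadjusted p under 0.05, against 7.34% to 14.5% of all genes by edgeR's test.

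Of 13 activators and inhibitors of the kinases, 3 were higher, 7 lower and 3 not called (median -0.31). Hsp90ab1, a chaperone that holds HRI and other kinases, fell at all 5 stages, from 468.6 to 96.0 CPM at FGO 4W (-2.29, adjusted p 6.75e-11). Dnajc3, which encodes the PERK and PKR inhibitor P58IPK, also fell at all 5 stages, by -1.12, -1.24, -0.77, -1.07 and -0.43 from GO 2W to zygotes. Gcn1, the activator of GCN2, was lower at FGO 3W (-0.84, 0.00195), FGO 4W (-1.03, 1.05e-05) and MII 3W (-0.90, 1.16e-05) and higher in zygotes (0.53, 0.00932). Adar, which edits the double-stranded RNA read by PKR, was lower in the average (-0.31, 0.000396). Of the 7 tested of 8 phosphatase catalytic subunits and initiation factors that act without eIF2, 2 were higher, 2 lower and 3 not called (median 0.033). They were Eif2a (0.63, adjusted p 0.000323) and Ppp1cb (0.39, 0.00141), higher, and Eif2d (-0.42, 0.000982) and Ppp1ca (-0.37, 0.00564), lower. Beside the counts of both lists, 24.4% of all genes were higher in the average and 23.6% lower.

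Of the 45 tested of 48 ATF4 and CHOP target genes, 15 were higher, 8 lower and 22 not called, with a median of 0.307. Eif4ebp1, the gene for 4E-BP1, a repressor of the cap-binding factor eIF4E, rose at all 5 stages, as from 2.17 to 28.01 CPM at GO 2W (3.68, adjusted p 4.51e-08). Cth, of cysteine synthesis, also rose at all 5 stages, most at MII 3W from 34.1 to 136.6 CPM (2.00, 5.16e-08). The one-carbon gene Aldh1l2 rose at low levels, from 0.0908 to 1.54 CPM at GO 2W (3.92, 0.00126), and stood at 0 in WT zygotes against a mean of 1.78 CPM in CKO. In the other direction, Slc3a2, the heavy chain of amino acid transporters, fell at all 5 stages, from 390.0 to 190.9 CPM at MII 3W (-1.03, 8.19e-06). By stage, 9, 10, 12, 11 and 6 targets were higher from GO 2W to zygotes and 2, 5, 7, 7 and 3 lower. The shares of all genes stand above with the members' counts.

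Of 34 genes of the IRE1 and ATF6 arms and the endoplasmic reticulum chaperones, 8 were higher, 16 lower and 10 not called (median -0.24). The folding enzymes Pdia4 and Pdia3 and the co-chaperone Dnajb11 fell at all 5 stages, Pdia4 from 124.8 to 21.7 CPM in zygotes (-2.52, adjusted p 2.29e-10). Calr, the chaperone calreticulin, fell by -1.62 in growing oocytes, by -1.57 and -1.39 in fully grown oocytes at 3 and 4 weeks and by -0.93 in zygotes, and rose by 0.42 (0.0396) in MII 3W. Of the 24 tested of 31 double-stranded RNA and interferon genes, 7 were higher, 6 lower and 11 not called (median 0.11). The RNA sensor gene Ddx58 fell by -1.35 in the average (6.86e-09), and Oas1b by -0.98 (1.6e-07) and Oas3 by -1.30 (8.36e-05), while Irf3 rose by 0.86 (5.71e-06). Of 20 stress granule genes, 8 were higher, 2 lower and 10 not called (median 0.26). Fmr1, which encodes an RNA-binding protein, rose at all 5 stages, with an average of 1.70 (1.29e-12). G3bp1, the granule scaffold, rose by 0.93 (1.31e-09) and the poly(A)-binding gene Pabpc1 by 1.30 (2.81e-08). The 24.4% of all genes higher and 23.6% lower in this contrast form the background of these counts.

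**Figure D5:**
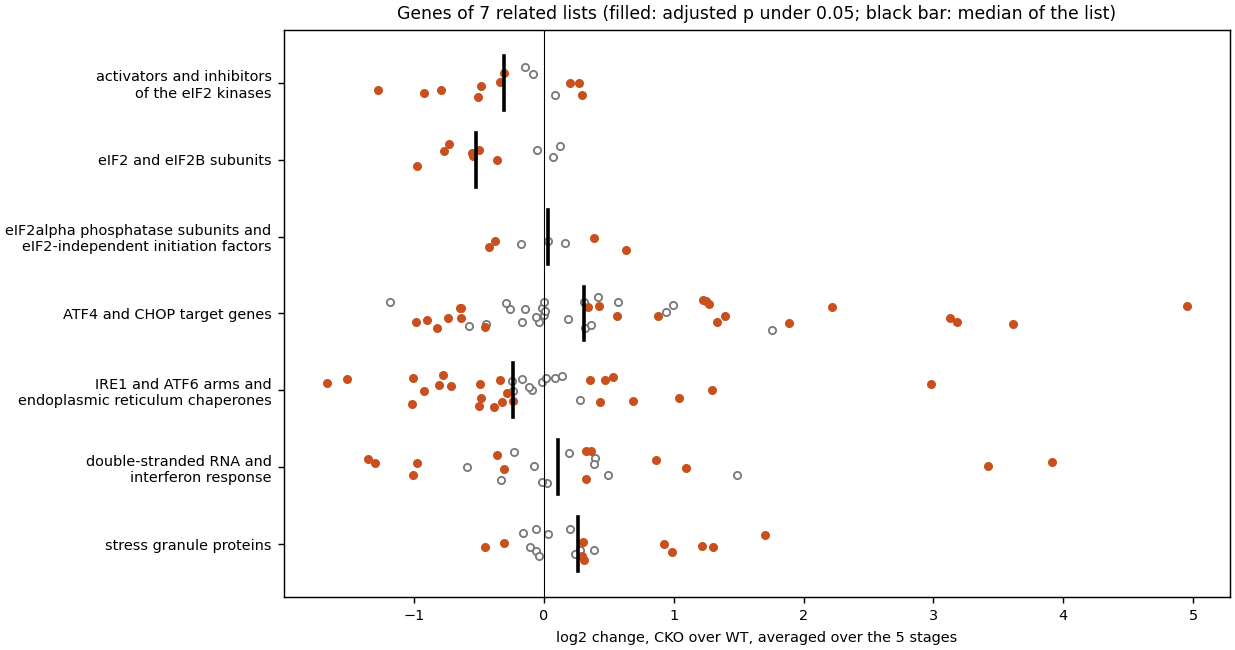
Log2 change of CKO over WT averaged over the 5 stages for each tested gene of 7 related lists (points, filled where adjusted p was under 0.05), with the list median as a black bar. The eIF2 and eIF2B list lies mostly below 0 (median -0.52), and the ATF4 and CHOP targets spread to both sides (median 0.307).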

How the data were processed

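Poly(A) RNA of 29 tubes was measured by Smart-seq2. The deposited counts are raw reads per gene symbol, and the deposited FPKM are the authors' counts per gene length and library total. The submitters' processing notes list featureCounts, HISAT2, SAMtools, FastQC and Trim Galore as tools and mm10 as the build. Versions, annotation and strand setting are not given in the sources used here. Of all count values between 1 and 20, 81.0% were even. Counts were thus not all independent, and the limit of 3 counts given for a 0, which assumes that they were, may be too low. Without molecular identifiers, it reflects counting error alone.

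A single model of the 10 groups, with 19 residual degrees of freedom, was fitted to the raw counts by edgeR's quasi-likelihood method (version 4.0.16 under R 4.3.3). The dispersion followed a trend, library sizes were scaled by TMM, genes were kept by filterByExpr at a minimum count of 10, and the Benjamini-Hochberg adjustment ran over 21768 genes. The fit was tested on simulated data. Alternatives were RLE size factors, no filter, 1 dispersion for all genes, DESeq2 1.42.0, limma 3.58.1 on log2(FPKM + 1) and log2(FPKM + 0.1), a replicate block, each stage alone and leaving out each library. Fits without the 3 libraries rich in ribosomal RNA and without ribosomal RNA rows were chosen after seeing the data. The members, the gene lists and the naming rule (all members, and from each list the 4 genes with the smallest adjusted p in the average plus those called at all 5 stages in 1 direction) were chosen with earlier results of these data known. Sequences came from RefSeq (GRCm38.p6) and GENCODE vM21 and were searched with Python 3.11.15. A result under the naming rule is not reported here.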

Additional observations from a re-analysis of the deposited data

Results flagged for a closer look

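The CKO change differed between stages for several members, by the interaction terms of the edgeR fit. Eif2ak3 had a smaller rise in FGO 4W than in GO 2W (difference -1.99). Between FGO 3W and MII 3W, the change moved up for Atf4 (0.82) and for Ppp1r15b (1.37), and neither was called without certain single FGO 3W libraries (adjusted p 0.0712 to 0.121 for Atf4, and 0.0625 and 0.0671 for Ppp1r15b). Between MII 3W and the zygote, it moved up for Ppp1r15a (1.63), Eif2ak1 (1.59) and Eif2ak4 (0.98) and down for Ddit3 (-1.41) and Atf4 (-0.84). For Eif2ak1 and Ppp1r15a these differences join a called fall at MII 3W to a called rise in zygotes.

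In CKO MII 3W, the only group of 4 libraries, replicate 2 held the lowest Eif2ak2 level at 0.237 CPM, far from the 0.663 to 0.744 CPM of the others. On the log2 CPM scale, the gap divided by the range was 0.892. Chance flags about 1 in 20 such groups, 8 were examined, and the library held 8 counts of Eif2ak2.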

How the results depend on the processing

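Depth limited Eif2ak2, with 0 to 45 counts a library, and Ddit3 at MII 3W. Eif2ak2 did not pass the FPKM filter of limma and has a limma value only with no filter. Of 1619 values of members under alternatives, 1473 kept their direction and side of the threshold, 76 lost a call, 47 gained one and 23 changed sign. The cause was not tested for any of them. The number of members called at GO 2W was 6 in a fit of that stage alone. At FGO 3W it was 5 with DESeq2, with limma on FPKM at either pseudocount and with no filter, and in a fit of that stage alone, and 6 without the 3 libraries rich in ribosomal RNA. In zygotes it was 2 with limma on log2(FPKM + 1) and log2(FPKM + 0.1) and 1 in a fit of zygotes alone. For FGO 4W over GO 2W in WT it was 2 with DESeq2, with limma on log2(FPKM + 1) with and without its filter, and without the rich libraries. Leaving out 1 library at a time gave 3 to 4 members at FGO 4W (3 without CKO replicate 3), 0 to 1 for FGO 4W over FGO 3W in WT and 1 to 2 in CKO.

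Sign changes were all of values that were not called. Ddit3 at FGO 3W was 0.009 with RLE size factors and with DESeq2, 0.050 with no filter, 0.21 and 0.23 with limma at pseudocounts of 1 and 0.1, 0.037 without the rich libraries, 0.060 in a fit of that stage alone and -0.18 to 0.13 with 1 library left out. Eif2ak4 in zygotes was -0.025 and -0.027 with limma at pseudocounts of 1 and 0.1, and -0.043 to 0.21 with 1 library left out. Ppp1r15b in zygotes was -0.0012 with limma on log2(FPKM + 1) and -0.082 without the rich libraries, and -0.081 to 0.25 with 1 library left out. Ddit3 at MII 3W was -0.0008 without ribosomal RNA rows and -0.013 to 0.27 with 1 library left out. With limma on log2(FPKM + 0.1) the median change of all genes was 0.12 at FGO 3W and -0.126 in zygotes, against -0.054 and 0.078 in the edgeR fit.

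Same-numbered WT and CKO tubes did not deviate together (correlations of -0.0797 to 0.0392 over 14 pairs), so the numbers were not taken to pair them. A replicate block gave 2, 3, 5, 5 and 4 members called from GO 2W to zygotes, 6 in the average and 7 for unequal change, and Eif2ak2 at MII 3W at 0.037, which was -0.90 to 0.99 with 1 library left out. Eif2ak1 in the average was called under the block (-0.29, adjusted p 0.0221) and Eif2ak4 at GO 2W was not (0.081).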
